A study of Mus musculus with 16 samples.

Results

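The 10 genes described here, *Pdgfrb*, *Rgs5*, *Cspg4*, *Kcnj8*, *Abcc9*, *Vtn*, *Acta2*, *Tagln*, *Myh11* and *Des*, are markers of the mural cells that wrap brain vessels. They were matched by gene symbol in the deposited table, which held 55487 gene identifiers, and all 10 were found once and passed the filter on low values that left 18859 genes for testing. The first 6 are used as pericyte markers and the other 4 as smooth muscle markers. The RNA was total RNA from the cortex of wild-type, 2-month-old male C57Bl6 mice, sequenced after depletion of ribosomal RNA. Mice received LPS, the bacterial endotoxin that provokes systemic inflammation, at 2 mg/kg i.p., or PBS, on 2 consecutive days at ZT1 (early in the light phase) or at ZT13 (early in the dark phase). Cortex was taken on the third day, at the time of day of the injections, from 3 ZT1 PBS, 5 ZT1 LPS, 3 ZT13 PBS and 5 ZT13 LPS mice. All groups shared the strain, sex, age and tissue, and all mice were perfused before the cortex was removed.

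Pericytes lie within the basement membrane of capillaries, while smooth muscle cells form the contractile coat of arterioles. Endothelial cells recruit pericytes and hold them on the capillary by releasing PDGF-B, which binds the receptor PDGFRβ on the pericyte, and brains with too few pericytes have a leaky blood-brain barrier (BBB). Contraction and relaxation of both cell types set vessel diameter, through actin and myosin on one side and potassium channels that quiet the membrane on the other. The study asked how the time of day (TOD) of an inflammatory challenge changes the BBB, and the comparisons below ask what these mural markers did in the same cortex samples.

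Values are CPM, the reads of a gene for every 1000000 reads on all genes of that sample. The samples held an estimated 20251840 to 29112758 reads on genes, and the lowest value of any marker rested on about 26 reads (*Des*) to 783 reads (*Rgs5*). Groups were taken from sample titles, because the treatment field contradicts the titles in 12 of 16 samples. *Gfap*, the astrocyte filament gene that rises in gliosis, was at 111 to 123 CPM in the mice titled PBS and at 572 to 1134 CPM in those titled LPS. Neuronal genes summed to 4279 to 5077 CPM over 7 genes, which does not set cortex apart from other brain regions. Choroid plexus genes varied from 14.5 to 979 CPM over 6 genes, with low and high mice in every group. In bulk tissue, fewer mural cells and less RNA per mural cell cannot be told apart.

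Per kilobase of annotated exon, *Vtn* was the most abundant marker in ZT1 PBS cortex, at 23.6 ± 2.58 CPM per kb (SD, n = 3). *Rgs5* followed at 10.6 ± 0.454 CPM per kb and *Pdgfrb* at 5.74 ± 0.377 CPM per kb, each separated from its neighbours by more than their SDs. *Acta2* at 3.75 ± 1.05 and *Cspg4* at 3.72 ± 0.249 CPM per kb did not differ beyond their spread. *Tagln* stood at 1.84 ± 0.337 CPM per kb, and *Myh11* at 1.12 ± 0.192, *Kcnj8* at 1.07 ± 0.0407 and *Abcc9* at 0.994 ± 0.0535 CPM per kb lay too close to be ordered. *Des* was lowest, at 0.508 ± 0.0997 CPM per kb. The pericyte markers thus covered both the top of the range and a level near its bottom, and the 4 smooth muscle markers lay in its middle and lower part.

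**Figure D1:**
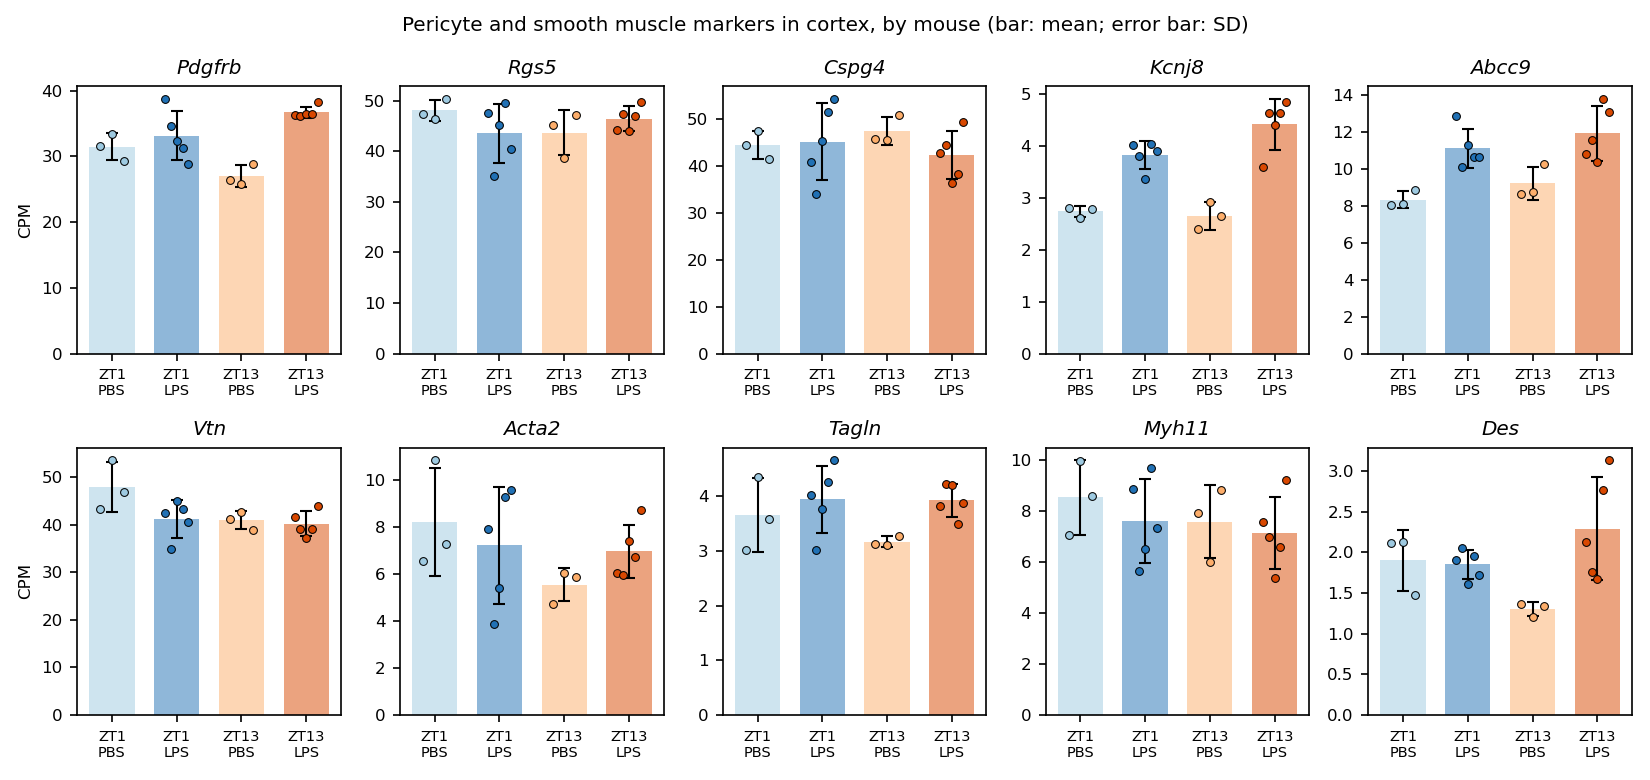
CPM of the 10 markers in every mouse, with the mean (bar) and SD (error bar) of each group of 3 PBS or 5 LPS mice. *Kcnj8* and *Abcc9* were higher in every LPS mouse than in every PBS mouse of the same time, whereas *Pdgfrb*, *Tagln* and *Des* were so at ZT13 only, and *Acta2* and *Cspg4* ranged widely within ZT1 LPS.

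LPS was compared with PBS at each TOD by limma on log2(CPM + 0.5), and genes with an adjusted p under 0.05 over all 18859 tested were called differentially expressed (DEGs). Fold changes are given on this scale, which understates those of low genes. At ZT1, 2 of the 10 markers were higher after LPS, *Kcnj8* and *Abcc9*, beside 11.1% of all genes tested, and none was lower, beside 5.15%. At ZT13, 4 of 10 were higher, *Pdgfrb*, *Kcnj8*, *Abcc9* and *Des*, beside 19.2% of all genes, and none was lower, beside 9.4%. At an unadjusted p under 0.05 there were 3 markers at ZT1, beside 30.3% of all genes, and 6 at ZT13, beside 38.3%, so the ZT1 count was at the background. The median log2 fold change of the 10 markers was -0.01 at ZT1 and 0.28 at ZT13, while that of all genes tested was 0.04 and 0.05. Most DEGs of the whole table were higher after LPS, 68.2% at ZT1 and 67.2% at ZT13, shares that were 54.1% and 51% with median-of-ratios scaling, under which the same 2 and 4 markers were called. Replicates were separate mice, and p-values measure the spread between them.

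*Kcnj8* encodes Kir6.1, the pore of the ATP-sensitive potassium (K-ATP) channel of mural cells, and *Abcc9* encodes SUR2, its regulatory subunit. In GRCm38 both lie on the minus strand of chromosome 6, *Kcnj8* at 142564837 to 142571614 and *Abcc9* at 142587862 to 142702315, with a gap of 16.2 kb and no annotated gene between them. Their upstream sequences are shown because these neighbouring genes make 1 channel and were both higher after LPS at both times. Each is the stretch of 250 bases before the RefSeq start (GRCm38.p6, minus strand, 5′ to 3′), with GC boxes (GGGCGG on either strand) and CArG-like elements in capitals.
Kcnj8, chr6:142571615-142571864: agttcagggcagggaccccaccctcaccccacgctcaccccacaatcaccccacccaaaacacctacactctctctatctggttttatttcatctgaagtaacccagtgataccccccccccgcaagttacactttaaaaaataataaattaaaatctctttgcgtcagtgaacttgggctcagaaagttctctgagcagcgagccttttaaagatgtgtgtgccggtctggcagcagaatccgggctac
Abcc9, chr6:142702275-142702524: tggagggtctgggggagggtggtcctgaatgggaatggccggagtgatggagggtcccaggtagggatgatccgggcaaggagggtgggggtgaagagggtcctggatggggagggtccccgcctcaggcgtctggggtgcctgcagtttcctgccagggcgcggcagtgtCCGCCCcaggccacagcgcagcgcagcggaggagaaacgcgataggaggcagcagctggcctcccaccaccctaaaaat
The *Abcc9* stretch held 1 GC box, 79 to 74 bases before the start, and was 66.8% G and C. The RefSeq start of *Abcc9* lies inside the gene model used for its coordinates, so the last bases of its stretch overlap that model. The *Kcnj8* stretch held no GC box and was 49.2% G and C. GC boxes occurred in 32.7% of 32851 mouse promoters of the same length, and these matches are descriptions only.

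*Kcnj8* stood at 2.81, 2.62 and 2.78 CPM in the ZT1 PBS mice and at 4.01, 3.80, 3.37, 4.03 and 3.90 CPM in the ZT1 LPS mice. At ZT13 it was 2.39, 2.91 and 2.64 CPM after PBS and 3.59, 4.64, 4.40, 4.62 and 4.84 CPM after LPS. Every LPS mouse was above every PBS mouse of its TOD. On the log2(CPM + 0.5) scale the difference was 1.33-fold at ZT1 (log2 0.42, SE 0.11, adjusted p = 0.024, limma) and 1.56-fold at ZT13 (log2 0.64, SE 0.12, adjusted p = 0.0013, limma). Group means for PBS and LPS were 2.74 and 3.82 CPM at ZT1, and 2.65 and 4.42 CPM at ZT13. The two-sided exact permutation p was 0.018 at both times, the smallest that 3 mice against 5 can give. The ZT1 call was lost without some single mice, since the adjusted p was 0.066, 0.088 and 0.070 in limma without ZT1 PBS replicate 1, 2 and 3 and 0.056 without ZT1 LPS replicate 4. The ZT13 call held in all 8 fits that left out 1 mouse.

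*Abcc9* was at 8.04, 8.10 and 8.84 CPM in ZT1 PBS and at 12.9, 10.1, 11.3, 10.6 and 10.6 CPM in ZT1 LPS. At ZT13 the PBS mice were at 8.65, 8.74 and 10.3 CPM and the LPS mice at 10.8, 11.6, 10.4, 13.8 and 13.1 CPM. The groups did not overlap at either TOD, although the highest ZT13 PBS mouse lay just under the lowest ZT13 LPS mouse. *Abcc9* was 1.31-fold higher at ZT1 (log2 0.39, SE 0.09, adjusted p = 0.013, limma) and 1.27-fold higher at ZT13 (log2 0.35, SE 0.10, adjusted p = 0.020, limma). The adjusted p rose to 0.063 and 0.058 without ZT1 PBS replicate 1 or 2, and to 0.084 and 0.083 without ZT13 PBS replicate 1 or 2 (limma). Of its exon bases 1.9% are shared with the antisense gene 5330439B14Rik, and whether reads were counted by strand is not given in the sources used here.

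*Pdgfrb*, the receptor for PDGF-B, was at 31.6, 33.4 and 29.3 CPM in ZT1 PBS and at 38.8, 34.6, 32.3, 31.2 and 28.9 CPM in ZT1 LPS. The ZT13 PBS mice had 26.5, 25.8 and 28.9 CPM, and the ZT13 LPS mice 36.3, 36.1, 36.5, 36.4 and 38.2 CPM. At ZT1 the groups overlapped throughout, and at ZT13 they were widely apart, with the ZT13 LPS mice tightly grouped. The ZT13 difference was 1.35-fold (log2 0.44, SE 0.05, adjusted p = 2.1e-05, limma; exact permutation p = 0.018), and it was called in all 8 fits that left out 1 mouse. At ZT1 the log2 fold change was 0.07 with a 95% interval of -0.12 to 0.26.

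The other 3 pericyte markers were not DEGs after LPS at either time. *Rgs5*, which speeds the shutdown of G protein signals in mural cells, ranged from 35.05 to 50.4 CPM over the 16 mice, with log2 fold changes of -0.15 (95% interval -0.36 to 0.06) at ZT1 and 0.09 (-0.05 to 0.23) at ZT13. *Vtn*, the secreted matrix protein vitronectin, ranged from 34.8 to 53.5 CPM and had log2 fold changes of -0.21 (-0.41 to -0.02) at ZT1, where the adjusted p was 0.13 (limma), and -0.03 (-0.15 to 0.10) at ZT13. *Cspg4*, the NG2 proteoglycan, ranged from 33.9 to 54.3 CPM and had values of 0.01 (-0.27 to 0.29) and -0.17 (-0.35 to 0.01). All of these intervals lie below the log2 fold change of *Kcnj8* at the same time. The interval of *Kcnj8* itself was 0.18 to 0.65 at ZT1, where that of *Cspg4* overlaps it, and 0.38 to 0.91 at ZT13. A difference between the genes was not tested. *Cspg4* is also a gene of oligodendrocyte precursors, whose 10 listed markers summed to 604 to 657 CPM in PBS mice and 552 to 649 CPM in LPS mice and it is not a measure of mural cells alone. Without ZT13 LPS replicate 5, *Cspg4* passed as lower at ZT13 (log2 -0.23, adjusted p = 0.024, limma).

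**Figure D2:**
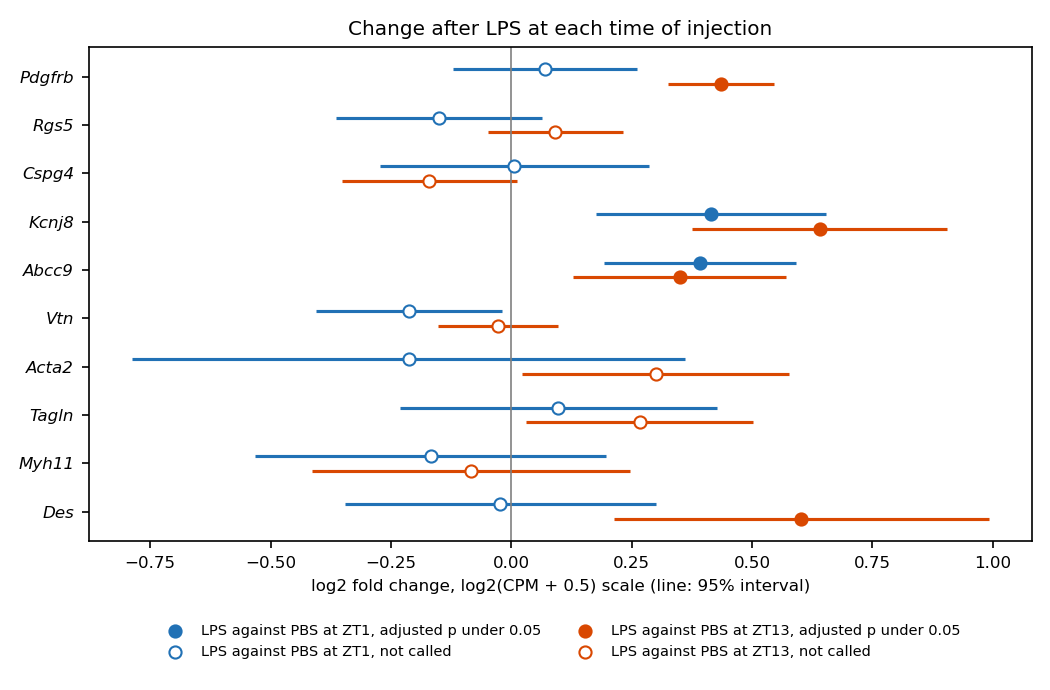
Log2 fold change after LPS at ZT1 (blue) and ZT13 (orange) for each marker, on the log2(CPM + 0.5) scale, with its 95% interval. Filled points passed an adjusted p of 0.05: *Kcnj8* and *Abcc9* at both times, and *Pdgfrb* and *Des* at ZT13.

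The smooth muscle markers encode parts of the contractile and structural apparatus. *Acta2* (chromosome 19, 34241090 to 34255590, minus strand) encodes smooth muscle α-actin, and *Des* (chromosome 1, 75360329 to 75368579, plus strand) the intermediate filament desmin, found in smooth muscle, in pericytes and in striated muscle. Serum response factor (SRF) drives many contractile genes through CArG boxes. The 250 bases before the RefSeq starts of these genes are shown, with the same elements in capitals. These genes were chosen because *Des* was called after LPS at ZT13 and *Acta2* was not. Whether their LPS effects differ was not tested, and the intervals of their log2 fold changes at ZT13 overlap. The interval was 0.21 to 0.99 for *Des* and 0.02 to 0.58 for *Acta2*.
Acta2, chr19:34255374-34255623, minus strand: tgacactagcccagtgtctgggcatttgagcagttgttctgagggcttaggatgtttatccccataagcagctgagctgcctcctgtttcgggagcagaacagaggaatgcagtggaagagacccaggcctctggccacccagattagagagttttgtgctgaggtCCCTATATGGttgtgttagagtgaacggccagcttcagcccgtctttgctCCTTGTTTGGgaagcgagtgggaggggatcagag
Des, chr1:75360042-75360291, plus strand: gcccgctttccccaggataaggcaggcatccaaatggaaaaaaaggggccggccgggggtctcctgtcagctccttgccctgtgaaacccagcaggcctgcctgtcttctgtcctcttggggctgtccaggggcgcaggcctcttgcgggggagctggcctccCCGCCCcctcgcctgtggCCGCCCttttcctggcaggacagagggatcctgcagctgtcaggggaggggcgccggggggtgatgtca
The *Acta2* stretch held no full CArG box but 2 forms with 1 other middle base, CCCTATATGG at 84 to 75 and CCTTGTTTGG at 34 to 25 bases before the start. The *Des* stretch held neither form and 2 GC boxes. Full CArG boxes occurred in 1.47% and the forms with 1 other middle base in 7.24% of the 32851 promoters. The RefSeq start of *Acta2* lies inside the gene model used for its coordinates, which ends at 34255590, so most of its stretch overlaps that model. Of the 10 markers 7 were searched, which left out *Pdgfrb*, *Tagln* and *Myh11*. None of the 7 held TTCNNNGAA or CACGTG, which occurred in 7.02% and 6.02% of promoters. CANNTG was found in 5 of the 7 and in 66.2% of promoters. *Vtn* alone of the 7 held TATAAA, found in 12.4%.

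*Des* was at 2.12, 2.12 and 1.47 CPM in ZT1 PBS and at 1.91, 2.06, 1.61, 1.96 and 1.72 CPM in ZT1 LPS. At ZT13 the PBS mice had 1.37, 1.20 and 1.34 CPM, and the LPS mice 2.13, 1.76, 1.68, 2.77 and 3.13 CPM. The ZT13 PBS mice were the lowest of all 16, and the ZT13 LPS mice spread over the widest range. *Des* was 1.52-fold higher after LPS at ZT13 (log2 0.60, SE 0.18, adjusted p = 0.023, limma; exact permutation p = 0.036). The adjusted p was 0.052, 0.080 and 0.058 without ZT13 PBS replicate 1, 2 and 3, and 0.056 without ZT13 LPS replicate 4 (limma). At ZT1 its log2 fold change was -0.02 (95% interval -0.35 to 0.30). The antisense gene Gm15179 shares 5.9% of its exon bases. The skeletal muscle genes *Ckm*, *Tnnt3* and *Mylpf* were too low to be tested, and a list of 5 such genes summed to 8.09 to 11.5 CPM in PBS mice and 8.21 to 13.1 CPM in LPS mice.

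*Acta2* was at 6.56, 10.9 and 7.28 CPM in ZT1 PBS and at 7.93, 3.89, 5.43, 9.31 and 9.60 CPM in ZT1 LPS. At ZT13 it was 4.74, 6.06 and 5.87 CPM after PBS and 6.07, 5.97, 7.42, 6.75 and 8.72 CPM after LPS. The groups overlapped at both times. Its log2 fold change was -0.21 (95% interval -0.79 to 0.36) at ZT1 and 0.30 (0.02 to 0.58) at ZT13, with adjusted p-values of 0.64 and 0.10 (limma). *Acta2* varied more than 2-fold between the lowest and highest ZT1 LPS mouse, so a change of moderate size could not be detected there.

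*Tagln*, which encodes the actin-binding protein transgelin, was at 3.02, 4.36 and 3.59 CPM in ZT1 PBS and at 4.02, 3.02, 3.76, 4.26 and 4.66 CPM in ZT1 LPS. The ZT13 PBS mice had 3.13, 3.10 and 3.28 CPM and the ZT13 LPS mice 3.82, 4.21, 4.21, 3.50 and 3.87 CPM, with no overlap. Its log2 fold change at ZT13 was 0.27 (SE 0.11, adjusted p = 0.087, limma), and the exact permutation p was 0.018. The antisense gene Gm48529 shares 62.4% of the exon bases of *Tagln*, and reads of the pair cannot be told apart if strand was not used. *Myh11*, the smooth muscle myosin heavy chain, ranged from 5.37 to 9.97 CPM and had log2 fold changes of -0.17 (-0.53 to 0.20) and -0.08 (-0.41 to 0.25). Counted over all 10 markers, LPS and PBS mice did not overlap for 2 at ZT1, both higher (15.9% of all genes were so, and 8.41% lower), and for 5 at ZT13, all higher (20.9% of all genes, and 10.3% lower).

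The TOD was compared next, to ask whether the markers differed between ZT13 and ZT1 in LPS mice and in PBS mice. Cortex was taken at the time of day of the injections. The time of injection and that of collection therefore cannot be told apart in these comparisons or in the interaction. In LPS mice none of the 10 was a DEG by limma, beside 0.0212% of all genes, and 1 had an unadjusted p under 0.05, beside 10.6%. That marker was *Pdgfrb*, with a log2 difference of 0.15 (95% interval 0.01 to 0.29, adjusted p = 0.43, limma). *Kcnj8* had 0.18 (-0.03 to 0.39), and all other log2 differences lay between -0.08 and 0.22. All 10 markers overlapped between the LPS groups, and the smallest exact permutation p was 0.048, for *Kcnj8*, where 0.0079 was the smallest possible.

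In PBS mice 8 of the 10 markers had lower means at ZT13 than at ZT1, and none was a DEG by limma, beside 0.52% of all genes. The unadjusted p was under 0.05 for 4, beside 13.5% of all genes: *Pdgfrb* (log2 -0.21), *Vtn* (-0.22), *Acta2* (-0.50) and *Des* (-0.40), with adjusted p-values of 0.22, 0.25, 0.27 and 0.33 (limma). *Vtn* was at 43.2, 53.5 and 46.9 CPM in ZT1 PBS and at 41.3, 42.6 and 38.9 CPM in ZT13 PBS. For these 4 markers every ZT13 PBS mouse was below every ZT1 PBS mouse, a pattern shown by 9.21% of all genes. With 3 mice against 3 the exact permutation p cannot go below 0.10, the value that all 4 had.

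**Figure D3:**
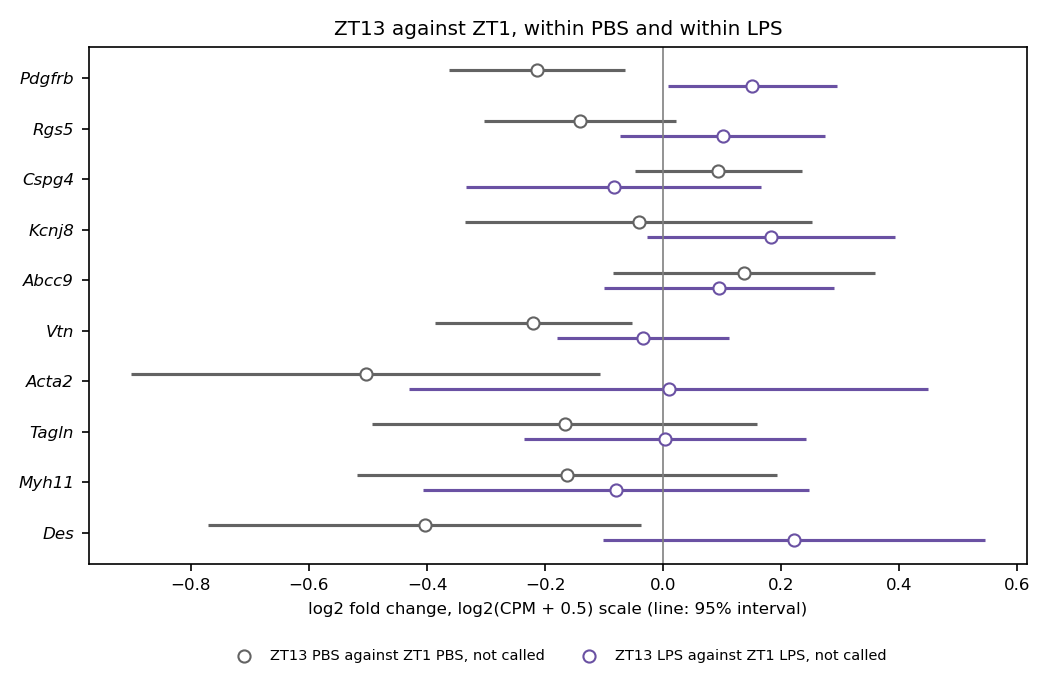
Log2 difference of ZT13 from ZT1 for each marker within PBS (grey) and within LPS (purple), on the log2(CPM + 0.5) scale, with its 95% interval. No point passed an adjusted p of 0.05, and the PBS values of *Pdgfrb*, *Vtn*, *Acta2* and *Des* lie below 0 with their intervals.

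The TOD × treatment interaction asks whether the LPS effect at ZT13 differed from that at ZT1. None of the 10 markers passed in limma, beside 0.159% of all genes, and 2 had an unadjusted p under 0.05, beside 9.25%. A fit that shared no variance between genes also called none of the 10. *Pdgfrb* had an interaction of 0.37 on the log2 scale (SE 0.10, unadjusted p = 0.0024, adjusted p = 0.22, limma), and *Des* of 0.62 (SE 0.23, unadjusted p = 0.016, adjusted p = 0.39, limma). Both markers had their lowest group mean in ZT13 PBS and their highest in ZT13 LPS, and the ZT13 PBS mice enter the comparison with LPS, the one with ZT1 PBS and the interaction. Their call at ZT13 and not at ZT1 is therefore not shown to be a difference between the times. For *Pdgfrb* the adjusted p was 0.033 without ZT1 LPS replicate 1, its highest mouse of that group, and 0.048 with sample quality weights (limma). For *Kcnj8* the interaction was 0.22 (95% interval -0.09 to 0.54) and for *Abcc9* -0.04 (-0.34 to 0.25).

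Other genes of mural cells were taken from lists drawn from general knowledge. Of 20 other pericyte genes 19 were tested. At ZT1 5 were higher after LPS and none lower, and at ZT13 9 were higher and none lower, with median log2 fold changes of 0.30 and 0.27. Over all genes 11.1% were higher and 5.15% lower at ZT1, and 19.2% higher and 9.4% lower at ZT13. *Foxf2*, a transcription factor of brain pericytes, was at 5.33, 3.85 and 3.79 CPM in ZT1 PBS and at 9.19, 4.83, 5.98, 8.33 and 7.34 CPM in ZT1 LPS, which overlap. At ZT13 it was at 2.999, 2.59 and 4.61 CPM after PBS and at 8.86, 9.07, 8.09, 8.26 and 9.94 CPM after LPS. The difference was 1.29 on the log2 scale at ZT13 (SE 0.14, adjusted p = 1.2e-05, limma) and 0.65 at ZT1 (adjusted p = 0.038), where the adjusted p was 0.138 and 0.149 without ZT1 PBS replicate 2 or 3 and 0.0731, 0.0789 and 0.0529 without ZT1 LPS replicate 1, 4 or 5 (limma). *Heyl*, a target of Notch signalling in mural cells, was higher by 0.59 and 0.73 (adjusted p = 0.0025 and 0.0013, limma). *Ndufa4l2*, a mitochondrial protein, was higher by 0.63 at ZT1 (adjusted p = 0.020, and 0.0678 and 0.082 without ZT1 PBS replicate 2 or 3) and by 0.63 at ZT13 (adjusted p = 0.0044, limma). *Anpep*, the aminopeptidase CD13, was higher by 0.80 at ZT13 (adjusted p = 0.00025, limma). At ZT1 its difference was 0.44 and was not called (adjusted p = 0.11, limma). Of 6 listed neutrophil genes 5 were tested, and all 5 were higher after LPS at both times, with medians of 2.66 and 4.32. The part of neutrophils in the *Anpep* values was not tested. *Ifitm1*, which is induced by interferon in many cells, rose from 0.690 to 1.53 CPM in PBS mice to 7.30 to 16.4 CPM in LPS mice (log2 2.68 and 2.94). Which cells of the cortex held the RNA of *Foxf2*, *Anpep* and the other listed genes was not tested.

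Of 16 other contractile genes 13 were tested; *Cnn1*, *Actg2* and *Map3k7cl* were too low. At ZT1 2 were higher and none lower, and at ZT13 4 were higher and 1 lower, with median log2 fold changes of -0.0272 and 0.135. The shares of all genes were 11.1% higher and 5.15% lower at ZT1, and 19.2% higher and 9.4% lower at ZT13. The ZT1 count and the 1 lower gene at ZT13 are near these shares. *Smtn*, the actin-binding protein smoothelin, was at 6.23 to 7.71 CPM in ZT13 PBS and 9.65 to 11.9 CPM in ZT13 LPS (log2 0.60, SE 0.10, adjusted p = 0.00033, limma). At ZT1 its difference was 0.42 (adjusted p = 0.042, limma), with adjusted p-values of 0.062 to 0.189 without ZT1 PBS replicate 1, 2 or 3 or ZT1 LPS replicate 1, 3 or 4. With all mice it was 0.0539 with median-of-ratios scaling, 0.0694 with no intensity trend and 0.15 with no filter (limma). *Mustn1*, a small muscle nuclear protein, was higher by 0.80 at ZT13 (adjusted p = 0.0023, limma). It was low, at 0.672 to 1.02 CPM in ZT13 PBS and 1.33 to 2.05 CPM in ZT13 LPS, near the filter of 1 CPM. At ZT1 the difference of *Mustn1* was 0.32 and was not called (adjusted p = 0.27, limma). *Synpo2*, an actin-bundling protein, was higher by 0.40 at ZT1 (adjusted p = 0.020, and 0.0698 and 0.0987 without ZT1 PBS replicate 2 or 3) and by 0.41 at ZT13 (adjusted p = 0.010, and 0.0661 without ZT13 PBS replicate 3, limma). *Myl9*, the regulatory light chain of smooth muscle myosin, moved the other way, from 6.72 to 7.35 CPM in ZT13 PBS to 3.50 to 6.36 CPM in ZT13 LPS (log2 -0.56, SE 0.15, adjusted p = 0.014, limma, and 0.0602 without ZT13 PBS replicate 3). At ZT1 the difference of *Myl9* was -0.46 and was not called (adjusted p = 0.085, limma).

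Of 6 regulators of the smooth muscle programme 5 were tested, *Myocd* being too low. At ZT1 1 was higher after LPS and none lower, and at ZT13 2 were higher and none lower. Among all genes 11.1% were higher and 5.15% lower at ZT1, and 19.2% higher and 9.4% lower at ZT13. *Srf* (log2 -0.12 at both times), *Mrtfb* (0.01 at both times) and *Klf4* (0.26 and 0.23) were not called. Which cells held the RNA of these genes was not tested. *Mrtfa*, a coactivator of SRF, was higher after LPS at ZT1 (log2 0.33, adjusted p = 0.0059, limma) and ZT13 (0.20, adjusted p = 0.0015), and it was also higher in ZT13 PBS than in ZT1 PBS (0.23, adjusted p = 0.043), a call that 1 of 6 fits without 1 mouse kept, with adjusted p-values of 0.138, 0.167 and 0.15 without ZT1 PBS replicate 1, 2 and 3 and 0.197 and 0.0808 without ZT13 PBS replicate 2 and 3. *Tead1*, a transcription factor that acts with YAP, was at 19.4, 19.9 and 19.2 CPM in ZT13 PBS and at 27.7, 28.1, 27.6, 28.8 and 26.7 CPM in ZT13 LPS (log2 0.50, SE 0.05, adjusted p = 5.6e-06, limma). At ZT1 the difference of *Tead1* was 0.23 and was not called (adjusted p = 0.13, limma).

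Among 5 other genes of PDGF signalling, *Pdgfb*, named for its role as the endothelial ligand of PDGFRβ, was at 24.8 to 32.1 CPM in ZT1 mice and 27.3 to 32.9 CPM in ZT13 mice and was not a DEG in any comparison. *Pdgfra*, the receptor of oligodendrocyte precursors and fibroblasts, was higher at ZT1 (log2 0.27, adjusted p = 0.043, limma) and ZT13 (0.25, adjusted p = 0.0039), and its ligand *Pdgfa* was lower at ZT13 (-0.19, adjusted p = 0.012, and 0.0744 without ZT13 PBS replicate 3). *Pdgfa* at ZT1 had -0.14 and was not called (adjusted p = 0.094, limma). The ZT1 call of *Pdgfra* had an adjusted p of 0.185, 0.0705 and 0.107 without ZT1 PBS replicate 1, 2 and 3 and of 0.0848 without ZT1 LPS replicate 1. With all mice 5 of 9 alternatives kept it, and it was 0.0781 with median-of-ratios scaling, 0.052 with sample quality weights, 0.107 with no intensity trend and 0.189 with no filter (limma). Of 20 vasoactive receptors and channels 16 were tested and none passed at ZT1 in limma, where 5 had an unadjusted p under 0.05, a share close to the 30.3% of all genes. At ZT13 1 was higher and 2 were lower, beside 19.2% and 9.4% of all genes. *Ptger4*, the relaxing EP4 receptor for prostaglandin E2, was the higher one (log2 0.75, SE 0.13, adjusted p = 0.00060, limma). Its difference at ZT1 was 0.49 (adjusted p = 0.13, limma). *Adra1a*, an adrenergic receptor that contracts vessels, and *Kcnma1*, the pore of the large-conductance potassium channel, were lower (-0.26 and -0.15, adjusted p = 0.016 and 0.0050), the first with an adjusted p of 0.0813 and 0.0693 without ZT13 PBS replicate 2 or 3. Their differences at ZT1 were -0.16 and -0.07. No tested gene of the lists of other mural genes passed the interaction test in limma, beside 0.159% of all genes. Many of the vasoactive receptors are also made by neurons and glia, so their levels are those of the whole cortex.

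**Figure D4:**
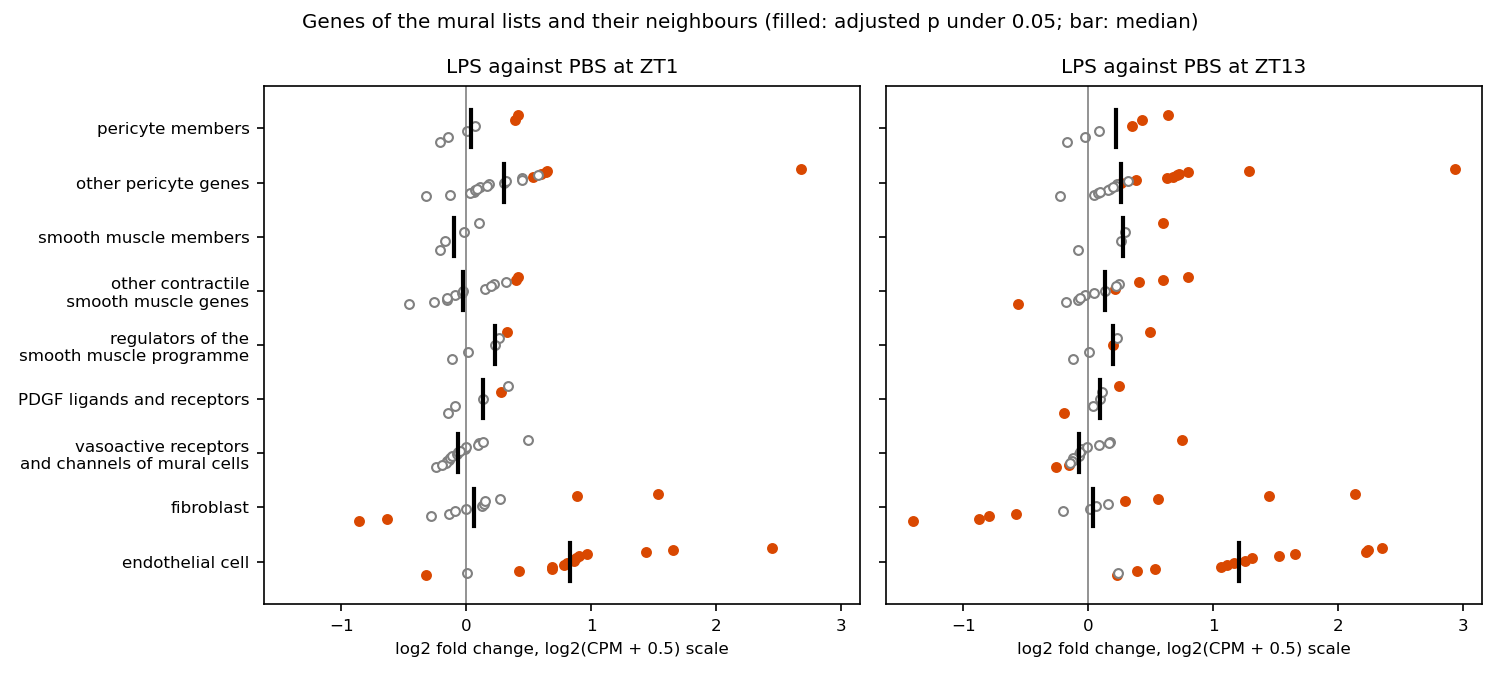
Log2 fold change after LPS at ZT1 and ZT13, on the log2(CPM + 0.5) scale, for each tested gene of 9 lists, with filled points at an adjusted p under 0.05 and a bar at the median. The medians of the mural lists lie between -0.10 and 0.30, while that of the endothelial list is 0.83 at ZT1 and 1.21 at ZT13.

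Endothelial genes, which belong to the cell layer that mural cells enclose, moved with LPS in the same samples. Of 14 endothelial markers 12 were higher and 1 lower at ZT1 and 13 were higher at ZT13, with medians of 0.83 and 1.21. Among all genes tested 11.1% were higher and 5.15% lower at ZT1, and 19.2% higher and 9.4% lower at ZT13. The summed level of the endothelial markers was 278 to 281 CPM in ZT1 PBS, 417 to 529 CPM in ZT1 LPS, 246 to 296 CPM in ZT13 PBS and 515 to 561 CPM in ZT13 LPS. Of the 14, 5 passed the interaction test, beside 0.159% of all genes, and 3 the comparison of ZT13 PBS with ZT1 PBS, beside 0.52%. The summed level of the 20 other pericyte genes was 141 to 156, 170 to 192, 129 to 146 and 178 to 195 CPM in the same order. Of 12 fibroblast markers 2 were higher and 2 lower at ZT1, and 4 higher and 4 lower at ZT13, with sums of 214 to 318 CPM in PBS and 217 to 292 CPM in LPS mice. The part of these cells in the mural marker values was not tested, and no marker of either list was at 0 in all mice of a group.

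Markers were also compared from mouse to mouse within groups. Deviations from the group mean gave a positive Pearson r for 39 of 45 pairs of markers over 16 mice, with a median r of 0.344. None of the 45 passed a permutation test after Benjamini-Hochberg adjustment, and 10 had an unadjusted p under 0.05. The highest was *Acta2* with *Tagln* (Pearson r = 0.805, permutation p = 0.0049, adjusted p = 0.11; Spearman rho = 0.715, p = 0.019, adjusted p = 0.28; n = 16), where r was 0.62 without the 2 mice farthest from the median of *Acta2*. *Rgs5* with *Myh11* followed (Pearson r = 0.735, permutation p = 0.0046, adjusted p = 0.11; Spearman rho = 0.735, p = 0.0076, adjusted p = 0.24; n = 16), with r = 0.599 without 2 mice. The points share their libraries and scaling, and pairs of other genes were not examined.

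**Figure D5:**
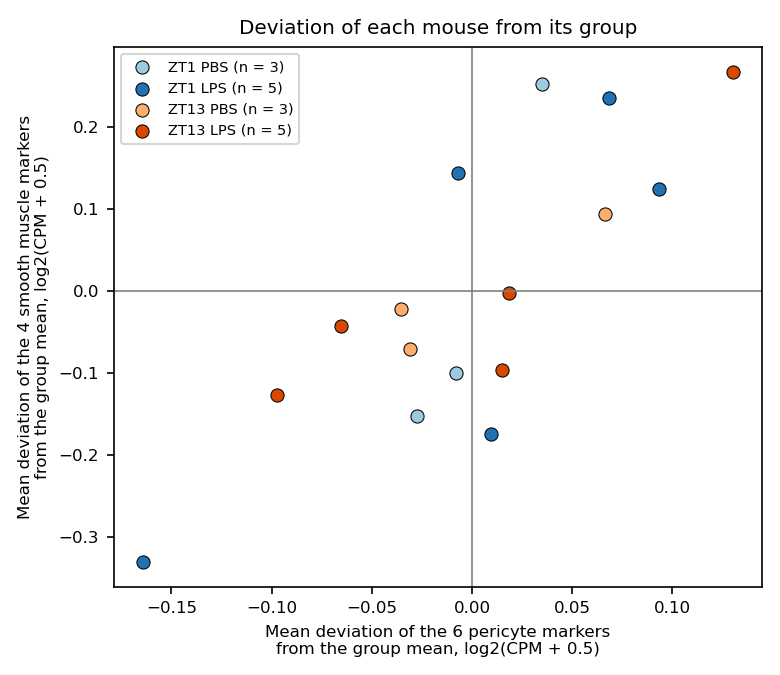
Mean deviation of each mouse from its group mean over the 6 pericyte markers (horizontal) and the 4 smooth muscle markers (vertical), on the log2(CPM + 0.5) scale. ZT1 LPS replicate 2 lies lowest on both axes, at -0.16 and -0.33, and ZT13 LPS replicate 5 highest, at 0.13 and 0.27.

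Some mice stood out in most markers. In ZT13 LPS replicate 5, ZT1 LPS replicate 1 and ZT13 PBS replicate 3, 9 of the 10 markers were above the group mean. In ZT1 LPS replicate 2 only 2 were. The smooth muscle deviation was highest in ZT1 PBS replicate 2 (0.25), ZT1 LPS replicate 4 (0.24), ZT13 PBS replicate 3 (0.09) and ZT13 LPS replicate 5 (0.27). Erythrocyte genes, whose RNA shows blood left in the tissue, summed over 5 genes to 10.7, 6.16, 9.39 and 11.1 CPM in those mice, the lowest value of the first 3 groups and the second lowest of the last. In ZT1 LPS replicate 2 they summed to 35.8 CPM, the highest of all mice. The fibroblast sum in the same 4 mice was 318, 247, 235 and 227 CPM, the highest of its group in the first, the second lowest in ZT1 LPS replicate 4 and ZT13 LPS replicate 5, and the middle one in ZT13 PBS replicate 3. In ZT1 LPS replicate 2 it was 231 CPM, the lowest of its group. The part of residual blood or of meningeal tissue in the marker values was not tested.

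By the same deviations, the gene most like the mean of the pericyte markers was *Ushbp1* (Pearson r = 0.934 across 16 mice), followed by *4930570B17Rik*, *Flvcr2*, *Fads2* and *Dnajb2* (r of 0.886 to 0.895). Those most like the smooth muscle mean were *Gm45342* (r = 0.92), *Pdlim4*, *Fads2*, *Rlbp1* and *Arhgef19* (r of 0.87 to 0.908). These are the top 5 of 18859 genes in each case and are given as a description.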

How the data were processed

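Cortex RNA of 16 mice in 4 groups was analysed, 3 PBS and 5 LPS mice at each of ZT1 and ZT13. The authors deposited CPM per gene, scaled to 1000000 reads on genes in each sample. The submitters' processing notes name bcl2fastq, DRAGEN 4.0.3-8 and GRCm38, and the strand setting of counting is not given in the sources used here. Of 55774 lines 287 were repeats and were removed. The lowest CPM values gave the CPM of 1 read and so the depth, but only 80.7% to 82.8% of values up to 20 reads were whole within 0.01 reads, so no test of whole counts was run.

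A gene was tested where 3 or more samples reached 1 CPM, using limma 3.58.1 in R 4.3.3 on log2(CPM + 0.5), with an intensity trend and Benjamini-Hochberg adjustment. Pairwise comparisons were fitted on their 2 groups and the interaction on all 16 mice. This scale understates fold changes of low genes. Simulated data with known changes were used to check the code. Single markers were compared by two-sided exact permutation, and pairs of markers by 100000 permutations within groups. Replicate numbers were not used as pairs. Deviations of same-numbered mice correlated at -0.20 to 0.33 over 20 pairs, and mice of different numbers were not compared, so pairing was not tested. Alternatives were other pseudocounts, filters, scaling, sample weights, variance models, sets of samples, a replicate block and leaving out each mouse. Intervals are at 95%, and depth limits cover counting error only. Levels per kb used the union of GENCODE M21 exons. Promoter sequences are from RefSeq (GRCm38.p6), and 7 of the 10 markers were used. Entries on chromosome 18, where *Pdgfrb* lies, were left out of the search, and *Tagln* and *Myh11* had no entry. The markers and lists were chosen with earlier results of these data known. All 10 markers are given, and from each mural list up to 4 DEGs with the largest change per comparison, with *Pdgfb* added after its values were seen. From the contractile list 1 gene is not reported here and was left out of the counts. The 5 genes most like each marker set were ranked by Pearson r of deviations from group means. Python 3.11.15, pandas 2.3.3, numpy 2.4.6, scipy 1.17.1 and matplotlib 3.10.9 were used.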

Additional observations from a re-analysis of the deposited data

Results flagged for a closer look

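Among 20 groups of 5 LPS mice examined for the 10 markers, 1 held a mouse far from the others. *Pdgfrb* was at 38.2 CPM in ZT13 LPS replicate 5, while the other 4 mice lay between 36.1 and 36.5 CPM, so that the gap was 0.837 of the whole range. Chance marks about 1 in 20 such groups, and the range itself was small.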

How the results depend on the processing

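The 2 markers called after LPS at ZT1 became 1 with a filter of at least 5 CPM in 3 samples, under which *Kcnj8* was too low to be tested, and 0 to 2 when 1 mouse was left out. The 4 called at ZT13 became 2 with that filter, under which *Kcnj8*, *Tagln* and *Des* were too low to be tested, and 2 to 5 when 1 mouse was left out. With the replicate number as a block, 1 marker was called at ZT1 (*Abcc9*) and 2 at ZT13 (*Pdgfrb* and *Kcnj8*). The adjusted p was then 0.139 for *Kcnj8* at ZT1, and 0.128 for *Abcc9* and 0.146 for *Des* at ZT13 (limma). Whether the numbers pair the mice was not tested, since mice of different numbers were not compared. The interaction had 0 called markers, 1 with sample quality weights and 0 to 1 when 1 mouse was left out, in both cases *Pdgfrb*. Both comparisons of ZT13 with ZT1 had 0 under every alternative run. Without a filter, *Abcc9* and *Des* lost their ZT13 calls (adjusted p = 0.099 and 0.105, limma) and *Tagln* gained one (0.0497), as it did with no intensity trend (0.018), where 5 markers were called. Among list genes, calls lost without a filter were *Mrtfa* (0.0565), *Foxf2* (0.182), *Ndufa4l2* (0.0616), *Synpo2* (0.0579), *Smtn* (0.15) and *Pdgfra* (0.189) at ZT1, *Myl9* (0.105), *Adra1a* (0.0823) and *Synpo2* (0.0511) at ZT13, and *Mrtfa* between PBS groups (0.165). With the block those lost were *Smtn* (0.115), *Ndufa4l2* (0.0852) and *Synpo2* (0.0828) at ZT1 and *Mrtfa* between PBS groups (0.101), and with no intensity trend *Foxf2* (0.0816), *Smtn* (0.0694) and *Pdgfra* (0.107) at ZT1 and *Mrtfa* between PBS groups (0.238). Over all genes, DEGs between the LPS groups numbered 4, against 225 with sample quality weights, 122 in a single fit of all mice and 345 without ZT1 LPS replicate 1. Those between the PBS groups numbered 98, against 158 with the 5 CPM filter and 3 with no intensity trend, those of the interaction 30, against 124 with weights and 5 with no variance shared between genes, and those at ZT1 3061, against 1605 with no filter. The cause of these changes was not tested.

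Of 1319 alternative values for 74 results of single genes, 1210 kept direction and call, 68 lost the call, 5 gained it and 36 changed sign, 0 of them of a called result. The sign changes were of log2 differences near 0. *Cspg4* after LPS at ZT1 was -0.0377 with median-of-ratios scaling, -0.157 with the block and -0.0642 to 0.104 when 1 mouse was left out; *Tagln* was -0.0153 with the block and -0.0159 to 0.216. Between the LPS groups *Acta2* was -0.00168 with median-of-ratios scaling, -0.0253 with weights and -0.177 to 0.123 by mouse left out, *Tagln* -0.00808, -0.021 and -0.0788 to 0.0595, and *Myh11* -0.174 to 0.0115 by mouse left out. The other ranges by mouse left out were -0.159 to 0.0462 for *Des* at ZT1, -0.0631 to 0.00113 for *Vtn* and -0.232 to 0.0267 for *Myh11* at ZT13, -0.102 to 0.0183 for *Kcnj8* between PBS groups, and -0.0951 to 0.033 for *Abcc9* and -0.0648 to 0.207 for *Myh11* in the interaction. Depth limited *Des* and *Kcnj8* most, at as few as 26 and 53 reads in a sample.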
